A study of Mus musculus with 620 samples.

Results

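The mitochondrial ribosome proteins that carry the gene symbols Mrpl and Mrps were examined across mouse tissues, ages and drug treatments. The members were every gene of the deposited count tables whose symbol is Mrpl or Mrps followed by a number and at most 1 letter, with pseudogene names left out. This took 78 genes, 49 named Mrpl and 29 named Mrps, out of 24850 genes in the LT table and out of 40840 in each of the ST and YA tables. All 78 members passed the filter on low counts in every tissue of every table, so none dropped out of a test.

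Mitochondria keep a ribosome of their own, which makes the few respiratory chain proteins that mitochondrial DNA encodes. Its 2 ribosomal RNAs come from mitochondrial DNA (mt-Rnr1 and mt-Rnr2), while all of its proteins are encoded in the nucleus, made in the cytosol and imported. Part of these proteins descend from bacterial ribosomal proteins and others are found only in mitochondria, and tissues that respire strongly, such as heart and skeletal muscle, are known to hold many mitochondrial ribosomes. Symbols can mislead here: Mrps30 and Mrps18a belong to the large subunit in spite of the letter s, and Mrps36 is now known as a subunit of the 2-oxoglutarate dehydrogenase complex of the citric acid cycle and not as a ribosomal protein.

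Poly(A) RNA was sequenced from 620 tissue libraries of mice, with 1 library per animal and tissue, in 3 cohorts that the labels call LT (25 animals), ST (31 animals) and YA (16 animals). In LT, young controls (LT_Y_ctrl), aged controls (LT_A_ctrl) and aged mice given exenatide (LT_A_Ex) were compared. Exenatide is a peptide drug that activates GLP-1R, the receptor of an incretin hormone. In ST there were young controls (ST_Y_ctrl), aged controls (ST_A_ctrl), aged mice given exenatide (ST_A_Ex) or rapamycin, an inhibitor of the mTOR kinase (ST_A_rapa), aged controls with hypothalamic knockdown of GLP-1R (ST_A_ctrl_KD) and the same knockdown with exenatide (ST_A_Ex_KD). YA mice were controls (YA_ctrl) or given exenatide (YA_Ex). Most LT groups held 8 or 9 animals per tissue, white blood cells 5, and young colon and young muscle 6. ST groups held 5, with 4 for white blood cells of exenatide-treated and rapamycin-treated mice, and YA groups held 8. Strain, sex, ages, doses, treatment times and the means of the knockdown are not given in the sources used here, and the hypothalamus of ST mice was not analysed here, so the knockdown could not be checked at its site. Nothing in the labels ties an animal of 1 cohort to another.

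Total counts per library ran from 14.6 to 56.2 M (M for mega, 1e6 counts), with medians of 25.8 M in LT, 24.8 M in ST and 26.2 M in YA, and the members together took between 0.0235% and 0.630% of them. Apart from white blood cells, the labelled tissues carried their own cell markers. These were adipocyte genes in adipose tissue, cardiomyocyte genes in heart, neuronal genes in brain regions and so on. No defining marker was at 0 in any group. White blood cells were checked by B and plasma cell genes, in CPM (counts relative to the scaled total of a library). Their sums were 2462 to 5333 CPM in LT, 384 to 4762 in ST and 654 to 2025 in YA. The highest group medians in other tissues were 8784, 4532 and 4011 CPM, so these genes do not set that label apart. In 23 libraries the expression profile lay far from the other libraries of the tissue, among them young A52 and A53 and aged control B24 in LT colon, aged control E23 and knockdown controls E9 and E20 in ST white blood cells, and aged control E13 in ST skeletal muscle. Age and drug comparisons that rest on these are given with and without them, while the comparison between tissues was made with all libraries only. The liver libraries titled B13 and B14, both from exenatide-treated LT mice, are named the other way round in their descriptions, which changes no group. In bulk tissue, fewer cells of a type and less RNA per cell cannot be told apart.

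To show the DNA these genes start from, the 150 bases before the start of 4 members that recur below, and of Mrpl22 as an example of the NRF1 motif, are printed 5′ to 3′ on the strand of the gene, as given by RefSeq for build GRCm38.p6. They lie at chr6:125192050-125192199 on the plus strand (Mrpl51), chr2:130563607-130563756 on the plus strand (Mrps26), chr11:58171514-58171663 on the plus strand (Mrpl22), chr7:78782981-78783130 on the plus strand (Mrps11) and chr3:95871515-95871664 on the minus strand (Mrps21). Capitals mark matches to 3 motifs searched on both strands: GCGCATGC, the core of sites of nuclear respiratory factor 1 (NRF1), CCGGAAGT, the core of sites of ETS factors such as GABP, and AAGATGGC, the core of YY1 sites. Mrpl51 and Mrps26 hold the ETS motif, the latter on the other strand, Mrpl22 the NRF1 motif, Mrps11 the YY1 motif on the other strand, and Mrps21 none of them.
Mrpl51: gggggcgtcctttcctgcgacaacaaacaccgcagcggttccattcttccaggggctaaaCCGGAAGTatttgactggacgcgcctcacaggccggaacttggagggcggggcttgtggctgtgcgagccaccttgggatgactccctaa
Mrps26: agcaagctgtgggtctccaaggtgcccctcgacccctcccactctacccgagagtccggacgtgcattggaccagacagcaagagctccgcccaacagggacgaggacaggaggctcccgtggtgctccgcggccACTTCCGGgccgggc
Mrpl22: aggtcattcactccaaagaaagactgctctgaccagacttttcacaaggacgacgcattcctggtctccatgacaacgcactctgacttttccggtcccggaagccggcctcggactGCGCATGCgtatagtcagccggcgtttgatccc
Mrps11: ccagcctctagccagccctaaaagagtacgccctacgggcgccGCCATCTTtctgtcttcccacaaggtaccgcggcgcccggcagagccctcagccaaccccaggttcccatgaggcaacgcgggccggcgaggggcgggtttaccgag
Mrps21: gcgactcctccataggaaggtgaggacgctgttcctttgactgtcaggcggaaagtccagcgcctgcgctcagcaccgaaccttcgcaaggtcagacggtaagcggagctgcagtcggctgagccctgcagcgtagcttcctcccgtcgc

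Of the members, 69 matched a RefSeq gene by symbol, with 75 windows running from 250 bases before the start to 50 bases after it. Mrpl4, Mrpl13, Mrpl15, Mrpl19, Mrpl38, Mrpl54, Mrps28, Mrps34 and Mrps35 did not. The ETS motif stood in 12 of the 75 windows (16%) against 3.89% of all 32851 windows, the YY1 motif in 12 (16%) against 2.75%, and the NRF1 motif in 8 (10.7%) against 2.71%. By gene, 29 of 69 (42%) held at least 1 of the 3, against 9.91% of all 27025 genes. Member windows were also richer in G and C, with a median of 58.7% against 52.7%. These are matches of letters in windows of the same length and say nothing of whether a factor binds.

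Across tissues of mice without a drug, members were highest in heart and skeletal muscle and lowest in white blood cells, and so they were in all 3 cohorts. The level of the whole set is given as the mean over the 78 members of log2 CPM, where CPM is the count of a gene relative to the scaled total of its library. In YA controls (n = 8 per tissue) it was 5.28 ± 0.13 (SD) in skeletal muscle, 5.27 ± 0.12 in heart, 4.92 ± 0.43 in hippocampus, 4.77 ± 0.06 in colon and 4.59 ± 0.08 in hypothalamus. Frontal cortex followed at 4.22 ± 0.04, adipose tissue at 3.89 ± 0.89 and white blood cells at 3.25 ± 0.38. Heart and muscle did not differ beyond their spread, and neighbours in this order from hippocampus (3.98 to 5.35) to colon (4.67 to 4.87) and hypothalamus (4.51 to 4.72) overlapped in range. Adipose tissue includes 1 library at 1.70 (animal A81), with the median at 4.19. The place of hippocampus after heart and muscle was not seen in young controls of the other cohorts. It stood at 4.22 ± 0.12 in LT and 4.12 ± 0.03 in ST. Adipose tissue (4.68 ± 0.16 and 4.54 ± 0.12) and colon (4.52 ± 0.16 and 4.24 ± 0.04) had higher means there. In LT young controls the liver (5.59 ± 0.31, n = 8) and kidney (5.23 ± 0.09, n = 8) came next after heart (5.88 ± 0.37, n = 8) and muscle (5.79 ± 0.23, n = 6), while lung (3.75 ± 0.20), spleen (3.85 ± 0.11) and white blood cells (3.67 ± 0.06, n = 5) were lowest and lay within each other's ranges. All LT livers were labelled batch 3 and all LT white blood cells batch 1, while the other LT tissues held batch 3 with batch 1 or 2. These levels carry no batch term, so tissue and batch cannot be told apart for liver and white blood cells.

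**Figure D1:**
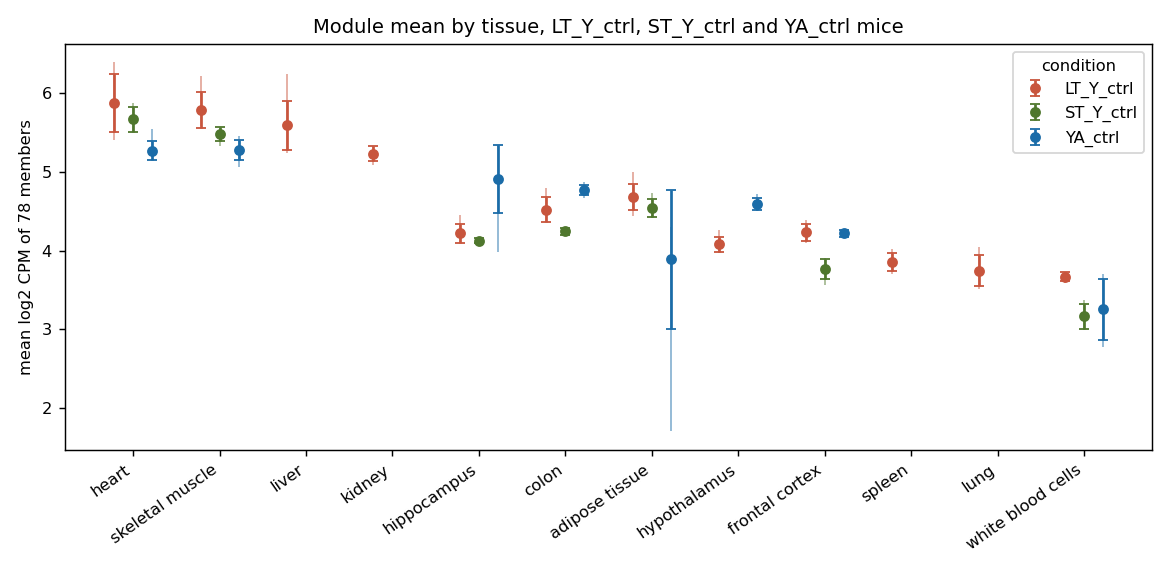
Mean log2 CPM of the 78 members by tissue in control mice of the 3 cohorts (LT_Y_ctrl, ST_Y_ctrl, YA_ctrl). Points are group means, thick bars are SD and thin bars run from the lowest to the highest library, and heart and skeletal muscle lie highest and white blood cells lowest in each cohort.

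When each YA tissue was set against the mean of the other 7 tissues of the same animals, 63 members were higher and 2 lower in heart, where 32.1% of all genes tested were higher and 33.1% lower. In skeletal muscle 58 were higher and 2 lower (33.8% and 36.3% of all genes), and in hippocampus 50 and 5 (42.4% and 33.7%). Colon stood at 31 higher and 8 lower (42.8% and 26.3%), a split of 23 and 16 with another scaling of the libraries. The 31 were near the background and the 8 below it. Hypothalamus divided its members about evenly, at 21 and 19 (41.1% and 32.5%), both below the background. This became 30 and 13 under that scaling. In frontal cortex 3 were higher and 50 lower (38.1% and 33.4%), in adipose tissue 0 and 64 (40.5% and 27.3%), and in white blood cells 0 and 74 (32.7% and 45.5%). Under that scaling adipose tissue gave 0 and 73 (36.2% and 32% of all genes). Its libraries include A81, whose low level is given above, and no fit of this comparison left A81 out. All YA colons were sequenced apart from the other tissues, so tissue and batch cannot be told apart there.

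Members did not keep fixed proportions to one another between tissues. The departure was measured as the SD, over the 8 YA control tissues, of a member's log2 CPM after the mean of the set was taken off. Mrpl42, a large subunit protein found only in mitochondria, departed most (SD 1.09): in YA controls it stood at 225 ± 13 CPM in muscle and 222 ± 18 in heart, against 47.6 ± 4.3 in colon, 22.4 ± 1.2 in frontal cortex and 7.62 ± 2.2 in white blood cells (SD, n = 8). The same order was seen in LT young controls, with 335 ± 54 CPM in muscle (n = 6), 308 ± 140 in heart (n = 8) and 10.4 ± 0.95 in white blood cells (n = 5). Mrpl41 (SD 0.787) and Mrps26 (0.758) were next in YA, with Mrpl48 close behind (0.754). Mrpl41 was highest in YA hippocampus (50.7 ± 17 CPM) and low in muscle (16.4 ± 3.7), and Mrps26, a small subunit protein without a bacterial counterpart, was also highest in YA hippocampus (79.7 ± 31). The other cohorts had another order. Young controls had most Mrpl41 in heart, at 53.2 ± 19 CPM against 24.3 ± 5.5 in hippocampus in LT and 49.9 ± 6.9 against 28.1 ± 0.62 in ST. Mrps26 was at 41.5 ± 18 CPM in LT muscle against 28.3 ± 4.8 in hippocampus, and at 33.7 ± 3.3 in ST heart against 28.1 ± 1.8. Mrps5, Mrpl47 and Mrps15, all with bacterial counterparts, followed the set most closely. Mrps5 ran from 8.89 ± 2.8 CPM in white blood cells to 35.2 ± 5.3 in muscle. These members were picked for how far their tissue profile left the mean of the set, so the values are a description.

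In LT and ST the members that left the set most were Mrps6 and Mrps25. Mrps6, the mitochondrial form of a small subunit protein of bacteria, was high in LT kidney (82 ± 12 CPM) and adipose tissue (71.6 ± 18) and at 3.90 ± 0.30 in white blood cells. In ST, Mrps6 reached 70.2 ± 18 CPM in adipose tissue (n = 5). Mrps25 was nearly flat, from 37.2 ± 2.8 CPM in lung to 64.6 ± 4.6 in hippocampus of LT young controls. Per kilobase of transcript, Mrpl42 and Mrpl18 were the highest members of the YA controls, at means over tissues of 116 and 100.2 CPM per kilobase, and Mrps22 the lowest at 3.54. Length, here and below, is the median over all GENCODE transcripts of a symbol. That gave 3296 bases for Mrps22 and 3803 for Mrps30, so the order depends on this choice.

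The members of the bacterial S18 family illustrate how copies differ. Mrps18b and Mrps18c sit in the small subunit and Mrps18a in the large one. In YA controls Mrps18a was highest in hippocampus (58.7 ± 20 CPM), Mrps18b in muscle (40.9 ± 4.6) and Mrps18c in colon (23.6 ± 2.1). In young controls of the other cohorts Mrps18a was highest in heart (63.6 ± 20 CPM in LT and 54.2 ± 8.9 in ST), with 23.2 ± 2.7 and 22.5 ± 1.3 in hippocampus. Mrps18c was highest in liver in LT (34.9 ± 17, with 19.5 ± 4.1 in colon) and in muscle in ST (20.9 ± 2.5, with 13.4 ± 1.0 in colon). Mrps18b was highest in muscle in ST as well (39.7 ± 3.1) and about level in liver and muscle in LT (55.9 ± 6.5 and 55.8 ± 8.2). In YA, Mrps36, the dehydrogenase subunit, was highest in heart (30.2 ± 5.4) and muscle (28.1 ± 3.0) and lowest in white blood cells (4.32 ± 0.91).

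Age and drugs were then compared within each tissue and cohort. Levels of the set within a tissue are given as the module mean, again the mean over the 78 members of log2 CPM, but with libraries scaled within the tissue, so they differ from the levels across tissues above. The plot of called members by tissue and comparison shows where the set moved. A member counts as risen or fallen where edgeR's quasi-likelihood test, adjusted by Benjamini-Hochberg over all genes of that tissue, gave an adjusted p under 0.05. Exenatide and rapamycin groups were compared with the same aged controls that stand in the age comparison, so opposite signs in age and treatment share samples and are shown side by side only.

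**Figure D2:**
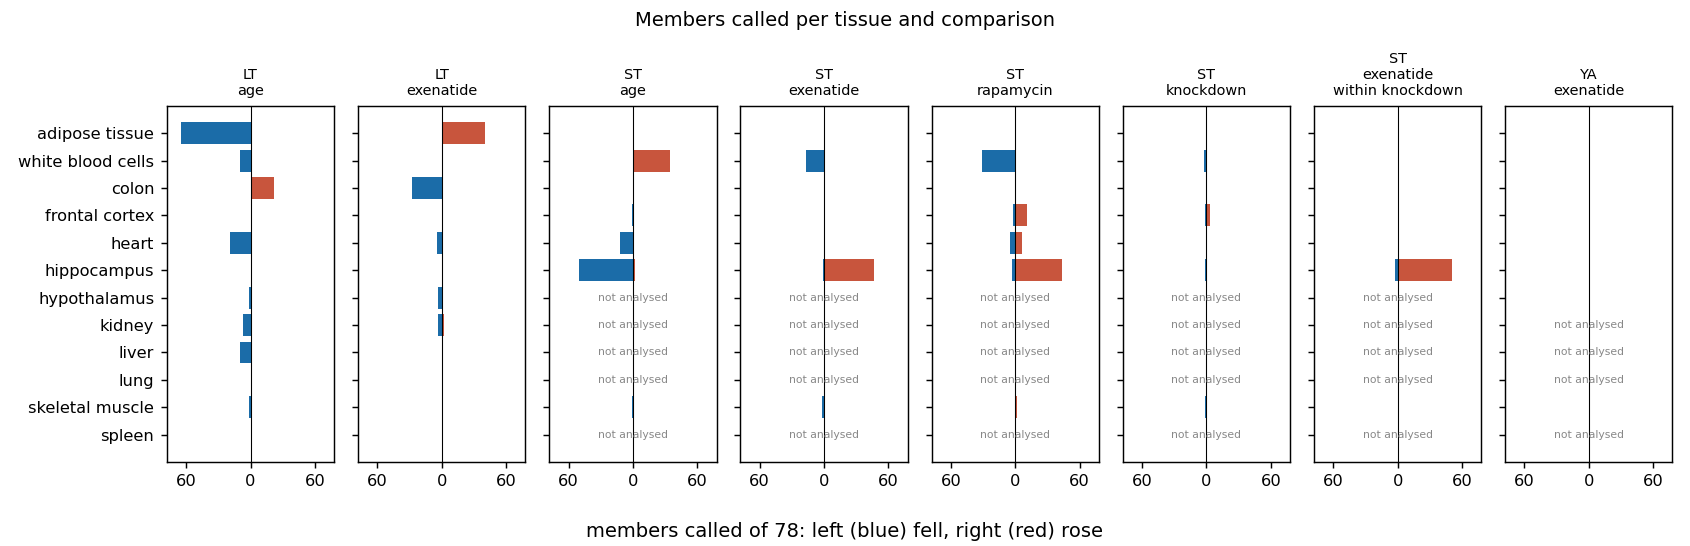
Number of members of 78 that fell (left, blue) or rose (right, red) in each comparison, by tissue, with tissues outside a cohort marked as not analysed. Adipose tissue (65 fell with age, 40 rose with exenatide) leads in LT and hippocampus (50 fell with age, 47 rose with exenatide) in ST, and no member was called in YA.

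In LT adipose tissue the members fell with age as a set. In the aged controls 0 members rose and 65 fell, against 26.1% of all genes that rose and 24.7% that fell, and the median member log2 fold change was -0.45 while over all genes it was near 0. The falls covered both subunits, with 38 of 49 Mrpl and 27 of 29 Mrps genes. The module mean was 4.82 ± 0.17 (SD, n = 8) in young and 4.35 ± 0.14 (n = 9) in aged controls, and their ranges overlapped only in that aged B16, at 4.64, lay above the lowest young library at 4.59.

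Mrps21, a small subunit protein related to bacterial S21, had 22.5, 33.5 and 38.5 CPM as lowest, median and highest value of the young adipose libraries and 10, 13.6 and 33.5 in aged controls. B16 was the highest aged library, the next stood at 23.8, and the groups overlapped. The log2 fold change of Mrps21 was -1.004 ± 0.19 (SE, adjusted p = 0.000263). Mrpl51, a large subunit protein found only in mitochondria, went from 36, 44.6 and 58.1 to 18.1, 20.8 and 40.3 CPM (log2 fold change -0.92 ± 0.15, adjusted p = 9.51e-05), with B16 again the highest aged library. The 3 genes of the S18 family fell together here, Mrps18a by 0.79, Mrps18b by 0.50 and Mrps18c by 0.34 on the log2 scale, and so did Mrps36 (-0.59 ± 0.13, adjusted p = 0.00082). The 13 members that did not pass included Mrps25, with medians of 46.6 CPM in young and 50.7 in aged controls, and Mrpl1, Mrpl3 and Mrpl47.

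With exenatide 40 members were higher than in aged controls and 0 lower in LT adipose tissue, where 10.2% of all genes rose and 8.68% fell, and 72 of 78 had a positive log2 fold change (median 0.31). These were 25 Mrpl and 15 Mrps genes. The treated module mean was 4.70 ± 0.22 (SD, n = 8), within the range of the young. Mrps5, a bacterial type small subunit protein near the path of the mRNA, had 7.77, 10 and 22 CPM in aged controls and 17.6, 25.3 and 29.9 with exenatide as lowest, median and highest value. The 2 highest aged libraries, B16 at 22 and the next at 17.8, reached into the treated range, and the log2 fold change of Mrps5 was 1.05 ± 0.18 (adjusted p = 0.00108). For Mrps21 the treated values were 23.4, 31.6 and 40.7 CPM (0.97 ± 0.19, adjusted p = 0.00185). Mrps18a rose (0.64 ± 0.13, adjusted p = 0.00177), while Mrps18b (0.18 ± 0.13) and Mrps18c (0.27 ± 0.13) did not pass.

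**Figure D3:**
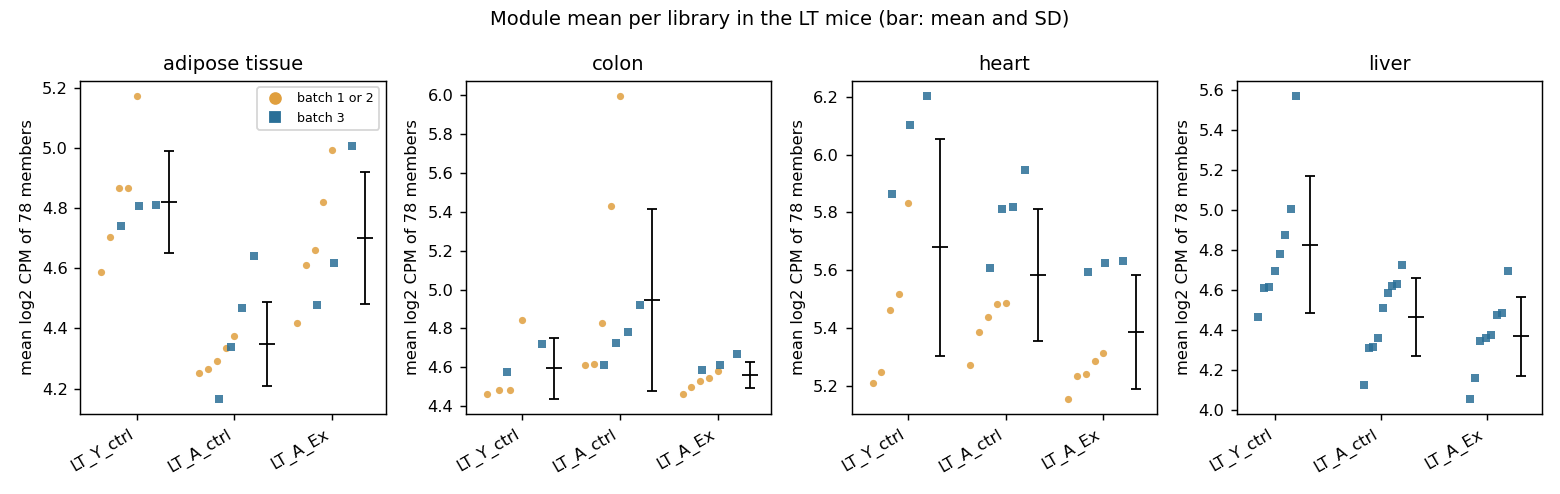
Mean log2 CPM of the 78 members in each LT library of adipose tissue, colon, heart and liver, by condition, with circles for batches 1 and 2 and squares for batch 3, and bars for mean and SD. Aged adipose controls lie at 4.17 to 4.64 and young ones at 4.59 to 5.17, and the colon of aged control B24 stands at 6.0.

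Oxidative phosphorylation genes moved with the set in adipose tissue. Of these nuclear-encoded genes, which build the complexes that mitochondrial translation serves, 0 rose and 65 fell of 73 with age (median -0.64), and 46 rose and 0 fell with exenatide (median 0.52). Mitochondrial translation factors fell in 8 of 15 cases and rose in 0 with age, and aminoacyl-tRNA synthetases of mitochondria fell in 5 and rose in 1 of 20, where 24.7% of all genes fell and 26.1% rose, so the falls of the synthetases were at the background. The mitochondrial ribosomal RNAs did not follow: with age 0 of 2 were called, and with exenatide mt-Rnr2 fell (-0.79 ± 0.16, adjusted p = 0.00196). The libraries were made from poly(A) RNA, which takes up only part of these RNAs. Of the cytosolic ribosomal protein genes 21 rose and 4 fell of 85 with age, with the rises near that background, and 24 rose and 0 fell with exenatide (10.2% and 8.68% of all genes).

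Cell markers also moved in LT adipose tissue. With age 8 of 8 B and plasma cell genes, 7 of 8 T and NK cell genes and 8 of 8 macrophage genes rose, and 6 of 7 white adipocyte genes fell. The summed white adipocyte markers ran from 11973 to 24054 CPM in young and from 3458 to 12783 in aged controls, the summed B and plasma cell markers from 227 to 1499 and from 3834 to 26560, and the summed macrophage markers from 1280 to 5028 and from 4375 to 10837, with none of these genes at 0. With exenatide 4 of 7 white adipocyte genes rose and 0 fell, and their sum was 7593 to 21031 CPM, while 0 B cell, T cell or macrophage genes were called. Erythroid genes fell in 5 of 5 cases with age (median log2 fold change -2.0) and rose in 5 of 5 with exenatide (median 1.84), with sums of 101 to 654 CPM in young, 33.2 to 160 in aged controls and 78.1 to 493 with exenatide. With age 6 of 6 endothelial genes fell (751 to 923 CPM in young and 256 to 683 in aged controls), as did 5 of 5 smooth muscle genes (139 to 271 and 64.6 to 171) and 2 of 3 tested brown adipocyte genes (3.91 to 15.9 and 1.30 to 5.64). With exenatide 1 endothelial, 2 smooth muscle and 1 brown adipocyte genes rose and 0 fell, at sums of 351 to 722, 87.2 to 199 and 0.934 to 36.1 CPM. Of 6 fibroblast genes 1 rose with age and 1 fell with exenatide. None of these was at 0 throughout a group. The part of cell composition in the members' changes was not tested.

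The LT libraries of adipose tissue were labelled batch 2 or batch 3. Within batch 2 alone (n = 5 in each group) 59 members fell with age (median log2 fold change -0.55) and 33 rose with exenatide (median 0.35). Within batch 3 alone (3 young, 4 aged, 3 treated) the medians had the same signs, -0.38 and 0.30, and 0 members passed. Leaving out any 1 animal gave 58 to 69 calls for age and 32 to 44 for exenatide.

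In LT colon the signs were opposite to adipose tissue. With age 22 members rose and 0 fell, against 6.01% and 8.41% of all genes, and with exenatide 0 rose and 28 fell, against 5.11% and 6.98%. Mrps21 had 12.6, 16.6 and 24.8 CPM as lowest, median and highest value in young controls, 23.2, 31.9 and 112 in aged controls and 8.55, 13.9 and 26.4 with exenatide. The aged value of 112 is that of B24. Log2 fold changes of Mrps21 were 1.27 ± 0.32 with age (adjusted p = 0.0141) and -1.40 ± 0.30 with exenatide (adjusted p = 0.00632). Mrps28 rose with age (1.02 ± 0.29, adjusted p = 0.0215) and Mrpl14, a protein at the face between the subunits, fell with exenatide (-1.02 ± 0.25, adjusted p = 0.0126), but the highest aged value of each was again that of B24, at 51 and 73.3 CPM against medians of 13.3 and 19.2.

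The colon result rests on few libraries. Without A52, A53 and B24, whose profiles stood apart, 4 members rose with age (median 0.19) and 27 fell and 1 rose with exenatide (median -0.24). Without young A52 alone 7 members were called with age, and 6 of the 15 omissions of 1 animal moved that count by more than 1.5 times. The exenatide count ran from 15 (without aged control B27) to 32. The module mean of aged controls was 4.95 ± 0.47, with B24 at 6.0 and B27 at 5.43 and the other 7 between 4.61 and 4.92, against 4.59 ± 0.16 (n = 6) in young and 4.56 ± 0.07 (n = 8) in treated mice. Both high libraries were of batch 2, and in batch 3 alone 1 member was called with age and 0 with exenatide (medians 0.06 and -0.10), against 3 and 15 in batch 2 alone (0.66 and -0.68). Oxidative phosphorylation genes (18 rose of 73 with age, 22 fell with exenatide) and cytosolic ribosomal protein genes (17 rose and 1 fell of 85, then 18 fell) moved in the same direction as the members. With age 4 of 7 white adipocyte markers fell, their sum running from 34 to 264 CPM in young and 31.9 to 83 in aged controls, and 2 of 7 epithelial markers fell, with sums of 10267 to 42225 and 26178 to 58795 CPM. Neutrophil markers rose in 2 of 4 tested cases, with all 4 log2 fold changes positive (median 1.64) and sums of 2.52 to 55.8 and 7.06 to 53.8 CPM. T and NK cell markers fell in 2 of 8 cases, with all 8 negative (median -0.76) and sums of 20.9 to 131 and 26.4 to 52.3 CPM. The neutrophil gene Elane was at 0 in aged controls and no other of these markers was at 0 in either group. With exenatide smooth muscle sums were 2293 to 3940 CPM, against 3085 to 4851 in aged controls. B and plasma cell sums were 1871 to 7067 against 2410 to 10481 CPM. Epithelial sums with exenatide were 31758 to 64093 CPM, neutrophil sums 20.1 to 129 and T and NK cell sums 19.7 to 48.4. All these ranges overlapped those of aged controls. The part of the markers in the members' changes was not tested.

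In LT heart 19 members fell with age and 0 rose, against 9.87% and 8.06% of all genes. The changes were small, with a median log2 fold change of -0.13. Mrpl47, a protein near the exit of the peptide tunnel, had 16.5, 18.7 and 20.3 CPM in young and 12.6, 14.2 and 16.9 in aged hearts as lowest, median and highest value, and the groups overlapped at their edges (-0.37 ± 0.06, adjusted p = 0.000321). Mrpl1, of the mobile L1 stalk, fell by 0.38 on the log2 scale (SE 0.08, adjusted p = 0.00177) and Mrps17 by 0.33 (SE 0.07, adjusted p = 0.00174). Without the batch term 6 members were called, in batch 2 alone 7 and in batch 3 alone 0, and without young A54 8. Of the T and NK cell markers 4 of 7 rose with age in this tissue and 0 fell, with sums of 2.56 to 4.09 CPM in young and 3.95 to 13.2 in aged controls, and 2 of 7 cardiomyocyte markers rose, with sums of 35053 to 53445 and 46040 to 61965 CPM. None was at 0, and their part was not tested.

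With exenatide 4 members fell in LT heart, where 1.34% of all genes fell, and 0 rose (2.67%). They were Mrpl38 (-0.38 ± 0.11, adjusted p = 0.04), Mrpl54 (-0.51 ± 0.13, adjusted p = 0.0345), Mrpl23 (-0.39 ± 0.11, adjusted p = 0.0376) and Mrpl46 (-0.32 ± 0.09, adjusted p = 0.0453), all of the large subunit. Mrpl38 had 42.3, 54.5 and 70.9 CPM as lowest, median and highest value in aged controls and 33.8, 40.2 and 57.6 with exenatide, with overlap. The same 4 genes fell in the colon of these mice, from the same animals. There 28 of the 78 members fell with exenatide, and how many of all genes fell in both tissues was not counted. Without aged control B15 no member was called in heart and without B41 11 were.

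In LT liver 10 members fell with age and 0 rose, against 2.14% and 2.36% of all genes, and all 78 had a log2 fold change below 0 (median -0.37). The module mean was 4.83 ± 0.34 (SD, n = 8) in young and 4.47 ± 0.20 (n = 9) in aged livers, with ranges of 4.47 to 5.57 and 4.13 to 4.73. The highest young library, A55, lay apart from the other 7, which reached 5.0. Mrps28 had 15, 19.7 and 51.3 CPM in young and 9.37, 14.7 and 20.9 in aged livers (-0.79 ± 0.21, adjusted p = 0.0341), and Mrpl41 fell by 0.76 on the log2 scale (SE 0.22, adjusted p = 0.0415). The count ran from 0 (without aged control B15) to 26 (without young A51), and 10 of the 17 omissions of 1 animal moved it by more than 1.5 times. Exenatide changed 0 members in liver, where 1.04% of all genes were called, and 2 had an unadjusted p under 0.05. T and NK cell markers rose in 4 of 8 cases and B and plasma cell markers in 3 of 8 with age, with sums of 3.85 to 6.79 CPM in young against 4.19 to 17.5 in aged livers and of 14.4 to 72 against 65.2 to 233, and none at 0. Their part was not tested.

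In LT white blood cells 10 members fell with age and 1 rose, against 12% and 15.7% of all genes, so falls were near the background and rises below it. Mrps5 had 14.9, 15.2, 16.2, 16.7 and 17 CPM in the 5 young and 7.23, 7.87, 9.58, 10.7 and 11 in the 5 aged controls, without overlap, and 10.9, 11.3, 11.7, 13.5 and 14.1 with exenatide. The age change of Mrps5 was -0.79 ± 0.12 (adjusted p = 0.00274). Mrps26 fell with it (-0.72 ± 0.15, adjusted p = 0.0055), and Mrpl48, of the large subunit, rose (0.52 ± 0.15, adjusted p = 0.0202), from 15.9 to 20.9 CPM in young to 19.3 to 33.1 in aged samples. With exenatide Mrpl34 was the 1 member called (0.66 ± 0.13, adjusted p = 0.0425), from 11.5, 11.8, 12, 12.2 and 16.1 CPM in aged controls to 15.2, 18.6, 19.6, 23.1 and 23.9, where 0.74% of all genes rose and 0.135% fell. Of the 78 members 70 had a positive log2 fold change with exenatide (median 0.26), and 34 an unadjusted p under 0.05. DESeq2 called 20 members there and edgeR 28 without treated B13. For age, counts ran from 4 (without aged control B34) to 19 (without B15). Platelet markers rose in 5 of 5 and B and plasma cell markers fell in 6 of 8 cases and rose in 1 with age. T and NK cell markers rose in 3 of 8 cases (450 to 553 CPM in young and 531 to 1314 in aged samples) and neutrophil markers in 2 of 4 tested (431 to 2019 and 1495 to 4375). The sums were 1738 to 4636 CPM in young against 4537 to 14658 in aged samples for platelets and 3975 to 5333 against 2924 to 3958 for B and plasma cells, with none at 0, and their part was not tested.

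Members called in LT kidney were few: 7 fell with age and 0 rose (2.73% and 4.72% of all genes). With exenatide 2 rose and 3 fell, against 8.25% and 5.97% of all genes, so both were below the background. Mrps10 had 24.3, 26.5 and 29.8 CPM in young and 17, 22.3 and 25 in aged kidneys (-0.30 ± 0.07, adjusted p = 0.00551), and Mrpl53 fell by 0.32 on the log2 scale (SE 0.09, adjusted p = 0.0195). With exenatide Mrps11 (0.41 ± 0.13, adjusted p = 0.0437) and Mrps24 (0.29 ± 0.10, adjusted p = 0.0455) rose, as both did in adipose tissue of the same mice, and Mrpl47 (-0.34 ± 0.08, adjusted p = 0.0122) and Mrpl1 (-0.31 ± 0.10, adjusted p = 0.0347) fell. In adipose tissue 40 of the 78 members rose, and how many of all genes rose in both tissues was not counted. Without young A51 2 members were called with age, and without aged control B15 1 with exenatide.

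No member fell with age in more than 3 LT tissues. Those with the smallest mean adjusted p among members at 3 were Mrps17, Mrpl53 and Mrps10 (adipose tissue, heart and kidney), Mrpl9 (adipose tissue, heart and white blood cells), Mrpl55 and Mrpl49 (adipose tissue, kidney and liver), Mrps27 (adipose tissue, liver and white blood cells) and Mrpl1 (heart, hypothalamus and skeletal muscle). Mrps17 changed by -0.27 ± 0.07, -0.33 ± 0.07 and -0.22 ± 0.06 in that order of tissues. Tissues of 1 cohort come from the same animals. In adipose tissue 65 of the 78 members fell, and how many of all genes fell in 3 tissues was not counted.

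Few members were called in the remaining LT tissues. With age 1 member rose and 0 fell in frontal cortex (2.94% and 2.8% of all genes), 1 rose and 1 fell in hypothalamus (3.12% and 3.97%), 0 rose and 1 fell in skeletal muscle (5.51% and 6.17%), 1 rose and 0 fell in spleen (6.94% and 4.27%), and 0 were called in hippocampus (0.403% of all genes called) and lung (6.43%), where 0 and 8 had an unadjusted p under 0.05. With exenatide 0 rose and 3 fell in hypothalamus (3.27% and 2.93%), among them Mrpl38 (-0.29 ± 0.09, adjusted p = 0.0427) and Mrps5 (-0.49 ± 0.13, adjusted p = 0.0361). In frontal cortex, hippocampus, lung, skeletal muscle and spleen 0 members were called with exenatide, where 0.0961%, 0%, 0.609%, 0.21% and 0.00588% of all genes were, and 15, 8, 8, 4 and 0 members had an unadjusted p under 0.05. In that order of tissues 22, 17, 8, 76 and 44 of the 78 had a positive log2 fold change, with a median of 0.14 in skeletal muscle. Single animals moved some of these counts. Without young A54 28 members were called with age in skeletal muscle and 14 in hypothalamus, without young A52 7 in spleen, and without treated B13 12 with exenatide in hypothalamus.

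In ST the hippocampus held the most called members. Age lowered 50 members and raised 2, against 14.1% and 11.9% of all genes, exenatide raised 47 and lowered 1 (14.2% and 14.4%), and rapamycin raised 44 and lowered 3 (14.1% and 13.5%), all 3 comparisons sharing the aged controls. Transcript length went with these changes: across the 78 members the Spearman correlation of length with log2 fold change was 0.42 with age, -0.41 with exenatide and -0.39 with rapamycin, so shorter members lay lower in aged controls, given as a description since genes of 1 library are not independent. With the length and GC trend of each library taken out, 44 fell and 2 rose with age, 42 rose and 1 fell with exenatide, and 41 rose and 2 fell with rapamycin. Such correlations were not particular to hippocampus. With GC content of the transcript they were -0.34, 0.33 and 0.23 in the same 3 comparisons. In LT adipose tissue they were -0.31 with age and 0.48 with exenatide, and in LT colon 0.43 and -0.47. In ST white blood cells they were 0.46, -0.39 and -0.32 with age, exenatide and rapamycin, and in ST frontal cortex 0.57 with rapamycin. The module mean in hippocampus was 4.38 ± 0.015 (SD, n = 5) in young mice, 4.09 ± 0.064 in aged controls, 4.4 ± 0.040 with exenatide and 4.35 ± 0.033 with rapamycin. Aged controls ranged from 4.02 to 4.16 and overlapped none of the other 3 groups, whose libraries all lay between 4.30 and 4.44.

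The knockdown groups, which share no animal with these, gave a second look at exenatide. Knockdown controls had a module mean of 3.99 ± 0.14 (3.85 to 4.22) and knockdown mice with exenatide 4.35 ± 0.033 (4.31 to 4.39), without overlap. Within knockdown 51 members rose and 2 fell with exenatide, against 16.1% and 15.1% of all genes (46 and 3 with the length and GC trend taken out, with a Spearman correlation of length and change of -0.43). Of the 47 members that rose without knockdown, 43 (91.5%) also rose within it, which is 84.3% of the 51. How many of all genes rose in both comparisons was not counted. Across the 78 members the log2 fold changes of both comparisons had a Pearson correlation of 0.92, against 0.41 across 18586 genes tested, given as a description since genes of 1 library are not independent. No member was called for the difference between the exenatide effects (0.043% of all genes), with 6 at an unadjusted p under 0.05 and a median difference of 0.04. Knockdown alone lowered 1 member and raised 0 (1.72% and 3.26% of all genes), and without knockdown control E21 22 were called.

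**Figure D4:**
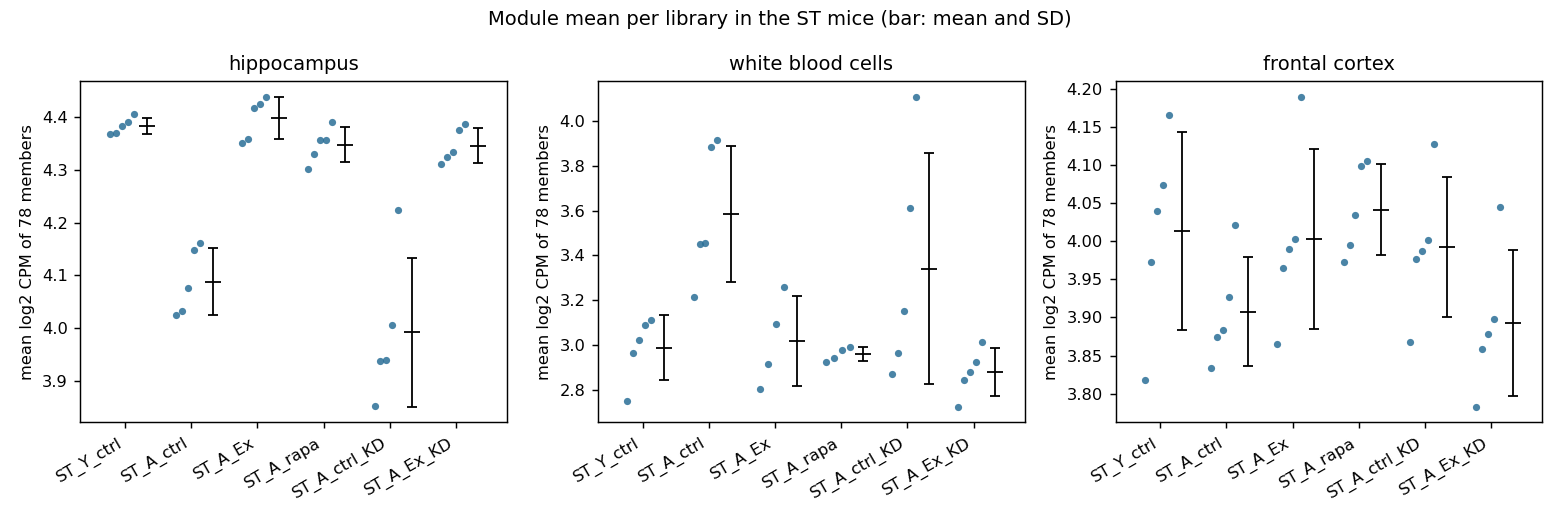
Mean log2 CPM of the 78 members in each ST library of hippocampus, white blood cells and frontal cortex, by condition, with bars for mean and SD. In hippocampus aged controls (4.02 to 4.16) and knockdown controls (3.85 to 4.22) lie below the other 4 groups (4.30 to 4.44).

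Mrps18c, the S18 protein of the small subunit, had 14, 14, 14.4, 15.3 and 15.8 CPM in young hippocampus and 7.03, 7.96, 8.35, 9.04 and 9.08 in aged controls. With exenatide it had 14.6, 14.8, 15.4, 16 and 16.1, and with rapamycin 13.6, 14.4, 14.6, 15.2 and 16. Knockdown controls had 7.50, 7.60, 8.0, 9.70 and 10.9 and knockdown mice with exenatide 14.7, 15.4, 15.6, 16.7 and 17.3. Every control library of aged mice, with or without knockdown, lay below every other library. Log2 fold changes of Mrps18c were -0.82 ± 0.09 with age (adjusted p = 2.64e-08), 0.89 ± 0.09 with exenatide (adjusted p = 6.25e-09), 0.83 ± 0.09 with rapamycin (adjusted p = 1.53e-08) and 0.87 ± 0.09 with exenatide within knockdown (adjusted p = 8.2e-09).

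Mrps21 showed the same arrangement, from 23.7, 24.5, 25.5, 26.8 and 27.1 CPM in young to 11.2, 11.9, 14, 14.6 and 18.3 in aged controls and 23.9, 24.1, 25.5, 25.9 and 25.9 with exenatide. In the knockdown it went from 7.39, 10.2, 10.4, 12.6 and 15.7 to 22.5, 23.3, 23.8, 26.8 and 27.9, again without overlap. Its changes were -0.87 ± 0.12 with age (adjusted p = 3.69e-06), 0.84 ± 0.12 with exenatide and 1.14 ± 0.12 within knockdown (adjusted p = 3.92e-08). The largest rises beside these were those of Mrpl52 with exenatide (0.87 ± 0.09, adjusted p = 1.08e-08), Mrpl14 with rapamycin (0.84 ± 0.08, adjusted p = 3.9e-09) and Mrpl20, a bacterial type core protein, with exenatide within knockdown (0.88 ± 0.09, adjusted p = 1.29e-08). Mrpl20 had 16.2 to 19.9 CPM in aged controls, 30.5 to 33 with exenatide, 11.3 to 19.9 in knockdown controls and 24.4 to 29.9 in knockdown mice with exenatide.

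Some members ran against the set. Mrps30, a large subunit protein without a bacterial counterpart, had 14.6, 15.3, 15.7, 15.8 and 15.9 CPM in young and 17.8, 17.9, 19.5, 19.9 and 21.1 in aged hippocampus, without overlap (0.32 ± 0.07, adjusted p = 0.000589). With exenatide it was at 15.6, 15.6, 16.7, 17.3 and 17.7 (-0.22 ± 0.07, adjusted p = 0.0128), below every aged control, with rapamycin at 15 to 17.1 (-0.26 ± 0.07, adjusted p = 0.00306), and within knockdown it fell from 18.3 to 22.9 down to 15.4 to 18.4 (-0.25 ± 0.07, adjusted p = 0.00435). With the trend of each library on transcript length and GC content taken out, the changes of Mrps30 with exenatide turned to 0.00604 without knockdown and 6.7e-06 within it, so its falls depend on that step. Mrps18b rose with age (0.30 ± 0.09, adjusted p = 0.0161) in overlapping groups, 9.22 to 10.8 CPM against 9.88 to 14.4, and did not pass with exenatide (-0.10 ± 0.09). Mrps2 fell with rapamycin (-0.18 ± 0.06, adjusted p = 0.0254) and Mrpl10, of the stalk base, within knockdown (44.6 to 50.6 CPM against 38.3 to 46.2). Within the S18 family, then, Mrps18c and Mrps18a fell with age (the latter log2 fold change -0.21 ± 0.07, adjusted p = 0.0258) and Mrps18b rose.

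Mrps36 moved with the ribosomal members in hippocampus: 11.5 to 12.3 CPM in young, 6.43 to 8.19 in aged controls, 10.5 to 11.5 with exenatide, 4.32 to 8.08 in knockdown controls and 9.86 to 10.9 in knockdown mice with exenatide. Its log2 fold changes were -0.69 ± 0.10 with age (adjusted p = 4.46e-06), 0.57 ± 0.10 with exenatide (adjusted p = 6.11e-05) and 0.86 ± 0.10 within knockdown (adjusted p = 1.4e-07).

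**Figure D5:**
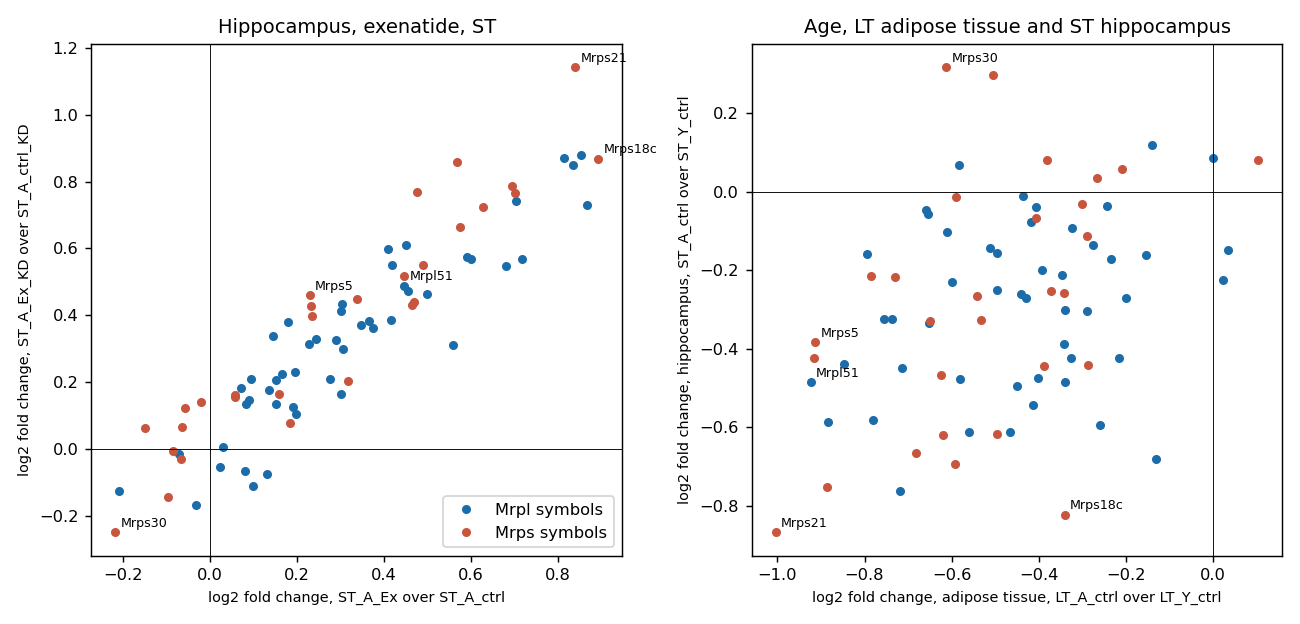
Log2 fold change of each of the 78 members, with Mrpl and Mrps symbols in different colours. Left, exenatide in ST hippocampus without (x) and with (y) knockdown, which share no animals, where the points run along the diagonal (Pearson 0.92). Right, age in LT adipose tissue (x) and in ST hippocampus (y), where they scatter (Pearson 0.36) and Mrps30 is negative in the first and positive in the second.

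Depth moved with the groups in ST hippocampus, and so did a few cell markers. Total counts (in M, as above) had medians of 43.2 in young, 24.1 in aged controls, 38.8 with exenatide, 33.5 with rapamycin, 27 in knockdown controls and 31.3 in knockdown mice with exenatide. With all libraries thinned to 22.7 M counts, 48 members were called with age, 47 with exenatide, 46 with rapamycin and 48 with exenatide within knockdown, against 52, 48, 47 and 53 in full data. Mitochondrial ribosomal RNA made up a median of 0.765% to 0.839% of counts in the 6 groups. Microglial markers rose with age in 4 of 5 and fell with exenatide in 3 of 5 cases, with sums of 241 to 255 CPM in young, 316 to 405 in aged controls, 261 to 309 with exenatide and 226 to 275 with rapamycin, where 4 of 5 fell. Astrocyte markers rose in 3 of 5 cases with age and fell in 2 with exenatide and 1 with rapamycin, with sums of 4208 to 4795 CPM in young, 4837 to 5930 in aged controls, 4831 to 5035 with exenatide and 4790 to 5230 with rapamycin, so the young and aged sums did not overlap. Macrophage markers rose in 4 of 8 cases with age and fell in 3 with rapamycin, with sums of 205 to 226 CPM in young, 222 to 379 in aged controls and 228 to 268 with rapamycin. Neuronal markers had 4934 to 5768 CPM in aged controls and 4860 to 5390 with exenatide, with none at 0. In young mice they had 5294 to 6167 CPM and with rapamycin 5245 to 5887. Oligodendrocyte sums were 4672 to 5882 CPM in young, 4221 to 6066 in aged controls, 5547 to 6956 with exenatide and 3314 to 4935 with rapamycin. In knockdown controls and knockdown mice with exenatide, microglial sums were 313 to 384 and 277 to 327 CPM. Astrocyte sums there were 4982 to 6406 and 5067 to 5637 CPM. The part of these markers in the members' changes was not tested.

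Oxidative phosphorylation and cytosolic ribosomal protein genes moved with the members in ST hippocampus. Of 73 oxidative phosphorylation genes 61 fell and 0 rose with age, 63 rose and 0 fell with exenatide, 58 and 0 with rapamycin and 66 and 0 with exenatide within knockdown. Cytosolic ribosomal protein genes fell in 59 and rose in 3 of 85 cases with age (median -0.32), and rose in 70 and fell in 2 with exenatide (median 0.43), in 80 and 1 with rapamycin (median 0.63) and in 53 and 0 within knockdown. Other groups lay nearer to the background of 14.2% risen and 14.4% fallen with exenatide: 2 mitochondrial translation factors rose and 2 fell of 15, 7 assembly and rRNA modification factors rose and 1 fell of 25, and 4 aminoacyl-tRNA synthetases rose and 0 fell of 20, while mt-Rnr1 and mt-Rnr2 did not pass.

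In LT hippocampus 0 members were called with age or exenatide, and in YA hippocampus 0 with exenatide. Across members, the age log2 fold changes of LT and ST hippocampus had a Pearson correlation of 0.15 (0.11 across 17523 genes). Whether the cohorts differ was not tested.

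In ST white blood cells the set moved the opposite way to hippocampus. With age 35 members rose and 0 fell (12.6% and 11% of all genes), with exenatide 0 rose and 17 fell (3.31% and 3.34%), and with rapamycin 0 rose and 31 fell (6.5% and 6.32%). The module mean was 2.99 ± 0.15 (SD, n = 5) in young, 3.58 ± 0.30 (n = 5) in aged controls, 3.02 ± 0.20 (n = 4) with exenatide and 2.96 ± 0.03 (n = 4) with rapamycin. Aged controls, from 3.22 to 3.91, lay above all young (2.75 to 3.11) and all rapamycin libraries (2.93 to 2.99) and overlapped the exenatide group (2.80 to 3.26).

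Mrps12, a bacterial type protein of the decoding centre, had 1.91, 3.02, 3.59, 3.62 and 4.66 CPM in young, 6.49, 7.26, 9.20, 12 and 18.4 in aged controls, 3.54, 4.07, 4.19 and 5.04 with exenatide and 4.16, 4.51, 4.82 and 5.46 with rapamycin. All aged controls lay above all libraries of these 3 groups. Mrps12 changed by 1.63 ± 0.34 with age (adjusted p = 0.00193) and -1.34 ± 0.35 with exenatide (adjusted p = 0.0268). Mrpl33, a small protein of bacterial type, rose with age (1.44 ± 0.37, adjusted p = 0.00727), from 14 to 22.7 CPM in young to 22.7 to 102 in aged controls. With rapamycin Mrpl54 had 3.35, 3.94, 3.99 and 4.22 CPM against 7.23, 8.09, 9.59, 11.9 and 12.7 in aged controls (-1.36 ± 0.36, adjusted p = 0.0184), without overlap, and Mrpl28 changed by -1.26 ± 0.30 (adjusted p = 0.01). Mrps30 rose with age here too (0.57 ± 0.16, adjusted p = 0.0134) and fell with exenatide (-0.60 ± 0.17, adjusted p = 0.0362), so in this tissue it moved with the set.

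Within knockdown no member was called with exenatide in white blood cells, and none of all genes tested was (0%), although all 78 members had a log2 fold change below 0 (median -0.57) and 48 an unadjusted p under 0.05. Knockdown itself lowered 2 members (3.31% of all genes) and raised 0 (4.66%). Without E9, E20 and E23, which stood apart, the counts were 48 risen with age, 35 fallen with exenatide, 46 fallen with rapamycin and 8 fallen with knockdown. Without rapamycin-treated E6 2 members were called with rapamycin, without aged control E13 0 with exenatide, and without E23 20 with age. Neutrophil markers rose in 4 of 6 cases with age, their sum running from 654 to 2149 CPM in young and from 1651 to 9133 in aged controls, with none at 0, and their part in the members' rise was not tested. Without E20 11 members were called with knockdown, and without E35 11 with exenatide within it. Erythroid markers, of which 0 of 7 were called with age, exenatide or rapamycin, summed to 158806 to 2210120 CPM in young, 92034 to 446829 in aged controls, 80998 to 283324 with exenatide and 42362 to 186597 with rapamycin. CPM refers to scaled totals, so a sum can exceed 1e6.

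In ST frontal cortex rapamycin raised 11 members and lowered 2, against 7.81% and 10.4% of all genes. Mrpl2, a protein of the catalytic core of the large subunit, had 10.7, 11.5, 12, 14.3 and 14.5 CPM in aged controls and 16, 17.2, 17.5, 17.7 and 18.3 with rapamycin, without overlap (0.46 ± 0.11, adjusted p = 0.00543). Mrps34, found only in mitochondria, rose by 0.45 ± 0.10 (adjusted p = 0.00348). Mrpl35 was lower in every treated library, at 19.2, 23.3, 23.6, 23.9 and 25 CPM against 26.7, 26.7, 27.7, 28.1 and 30.7 (-0.28 ± 0.07, adjusted p = 0.00588), and Mrpl3 fell by 0.25 on the log2 scale (SE 0.07, adjusted p = 0.0102). Of the cytosolic ribosomal protein genes 75 rose and 0 fell of 84, and both mitochondrial ribosomal RNAs fell (median -0.49). Without aged control E13 8 members were called with rapamycin, 0 with knockdown and 0 with age. Microglial markers fell in 2 of 5 cases, with sums of 285 to 322 CPM in aged controls and 249 to 278 with rapamycin. Oligodendrocyte markers (1 of 5 fell, sums of 3624 to 3797 and 2737 to 3412 CPM) did not overlap either, and astrocyte markers (1 of 5 fell) had 5433 to 6621 and 4717 to 5472 CPM. None was at 0, and their part was not tested. Knockdown raised 3 and lowered 1 here (3.28% and 3.04%), age 1 and 1 (4.3% and 1.26%), and exenatide 0 with or without knockdown (0.0274% and 0% of all genes), with 14 and 9 members at an unadjusted p under 0.05.

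In ST heart 12 members fell with age and 0 rose, against 13.2% and 11.5% of all genes, so falls were near the background and rises below it. Mrpl57 had 22.3, 23.4, 25, 27.8 and 29.2 CPM in young and 16, 17.1, 19.7, 20.3 and 20.9 in aged hearts, without overlap (-0.44 ± 0.11, adjusted p = 0.0082), and Mrps26 fell from 31.5 to 38.3 to 23.6 to 27.2 CPM (-0.43 ± 0.14, adjusted p = 0.0305). Among the members that fell with age in both heart and hippocampus of these mice were Mrpl57, Mrpl38, Mrpl2, Mrps26, Mrps36, Mrpl44 and Mrpl40. How many of all genes fell in both was not counted. With rapamycin 6 members rose and 5 fell, against 13.3% and 10.1% of all genes, so both were below the background. Mrps26 rose by 0.69 ± 0.14 (adjusted p = 0.00229) from the aged values above to 30.2, 30.2, 38.8, 47.2 and 58.5 CPM. Mrps22 changed by -0.40 ± 0.10 (adjusted p = 0.00843). Without young A42 5 members were called with age, and without aged control E30 4 with rapamycin. Exenatide changed 0 members with or without knockdown (2.47% and 0.0254% of all genes), with 11 and 4 at an unadjusted p under 0.05. With knockdown 0 were called (0.0698%, 7 unadjusted), nor any for the difference between the exenatide effects (0.0317%, 2 unadjusted). The age changes of the members in LT and ST heart had a Pearson correlation of -0.18, against 0.24 across 14990 genes. Macrophage markers rose in 8 of 8 cases with age and fell in 4 of 8 with rapamycin, with sums of 446 to 604 CPM in young, 691 to 1990 in aged controls and 497 to 1340 with rapamycin. With rapamycin 3 of 7 cardiomyocyte markers rose, from sums of 38175 to 57733 CPM to 50251 to 65213. None was at 0, and their part was not tested.

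Rapamycin raised Mrpl2 and Mrps26 in hippocampus, frontal cortex and heart of the same mice, and lowered Mrpl35 in frontal cortex, heart and white blood cells (-0.81 ± 0.22, adjusted p = 0.0205). Mrps34, Mrps5, Mrpl58, which frees stalled ribosomes from their peptide, and Mrpl38 rose in hippocampus and frontal cortex. In hippocampus 44 of the 78 members rose, and how many of all genes moved alike in these tissues was not counted. These tissues come from the same treated mice and the same aged controls.

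In ST skeletal muscle 1 member fell with age (9.23% of all genes) and 0 rose (9.22%), 1 rose and 2 fell with exenatide (9.33% and 9.03%), 2 rose and 0 fell with rapamycin (5.51% and 4.72%), 0 rose and 1 fell with knockdown (2.14% and 1.69%), 0 were called with exenatide within knockdown (0% of all genes, 3 at an unadjusted p under 0.05), and 2 rose and 1 fell for the difference between the exenatide effects (9.26% and 9.79%). These counts rest on aged control E13, whose module mean was 3.28 against 4.71 to 4.99 in the other 4. Without it 13 members rose and 1 fell with age, 1 rose and 20 fell with exenatide, 3 rose and 4 fell with rapamycin, 9 fell with knockdown, and 21 rose and 1 fell for the difference. In ST adipose tissue 0 members were called in any comparison, where 0.00566% of all genes were with rapamycin, 0.0226% with exenatide within knockdown and 0% in the other 4. In ST colon it was 0 members too, against 0.0221% of all genes with age, 0.105% with exenatide, 0.392% with rapamycin, 0.166% with exenatide within knockdown and 0% in the other 2. At most 8 members in adipose tissue and 10 in colon had an unadjusted p under 0.05 in any 1 comparison.

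In YA mice exenatide changed 0 members in each of the 8 tissues. Of all genes 4.61% were called in colon, 0.0136% in heart and 0% in the other 6 tissues. Frontal cortex had the most members with an unadjusted p under 0.05, 30 against at most 8 in the other tissues, and 75 of 78 had a positive log2 fold change there (median 0.11). The median was 0.14 in adipose tissue (69 positive, 1 unadjusted) and 0.13 in hypothalamus (73 positive, 3 unadjusted). Module means in frontal cortex were 4.57 ± 0.04 in controls and 4.67 ± 0.10 with exenatide (SD, n = 8 each), with overlapping ranges of 4.51 to 4.63 and 4.56 to 4.84. Mrps21 had 23.2, 24.7 and 26.7 CPM in controls and 24.2, 26.4 and 31.6 with exenatide as lowest, median and highest value in this tissue.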

How the data were processed

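Poly(A) RNA of mouse tissues was sequenced with a kit that does not mark strand, per the labels' protocols, so reads of overlapping or antisense genes cannot be separated. The authors deposited whole-number gene counts for LT and estimated counts for ST and YA, the latter rounded here to whole numbers. FastQC 0.11.9 and build GRCm39 are named in the submitters' processing notes. The aligner and the counting tool are not given in the sources used here.

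For each cohort and tissue, all conditions were fitted together in edgeR 4.0.16 (R 4.3.3, limma 3.58.1) with TMM scaling, filterByExpr and the robust quasi-likelihood test, with batch as a term in LT tissues that hold both batches. P-values were adjusted by Benjamini-Hochberg over all genes of a tissue and comparison, with a threshold of 0.05. Log2 CPM used a prior count of 2. YA control tissues were compared with the animal as a block, since the same 8 animals gave every tissue, and across tissues the libraries were scaled together. P-values measure the spread between animals of 1 cohort.

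Alternatives were DESeq2 1.42.0 and its size factors, no filter, other sample sets, a prior count of 0.5 and leaving out each animal. Removal of length and GC trends, of libraries that stand apart, and thinning to 1 depth were added after seeing the data. The members and lists were chosen with earlier results of these data known. Named members were, per comparison, up to 8 called in the same direction in most tissues, and in tissues with at least 5 calls the 2 largest rises and falls with an average log2 CPM of at least 1. The 3 most and least variable members across YA tissues, Mrps18a, Mrps18b, Mrps18c, Mrps36, mt-Rnr1 and mt-Rnr2 were also named. Mrps25 and Mrpl3 in LT adipose tissue were added after their values were seen. Also named outside these rules were Mrps6 and Mrps25 across LT and ST tissues and Mrpl18 and Mrps22 per kilobase. The same holds for Mrpl48 across YA tissues, Mrps21 in YA frontal cortex and Mrpl22 for its promoter.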

Additional observations from a re-analysis of the deposited data

Results flagged for a closer look

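Of 94 groups of 4 to 10 libraries checked for the module mean (mean log2 CPM of the 78 members, scaled within the tissue), 12 held a library far from the rest of its group, where chance alone would give about 1 in 20. In LT these were young A53 in white blood cells (3.67, the others 3.74 to 3.76), exenatide-treated B13 in skeletal muscle (5.73, the others 4.89 to 5.15) and young A54 in skeletal muscle (5.31, the others 4.76 to 4.93). In ST they were exenatide-treated E31 in colon (4.93, the others 4.43 to 4.56), knockdown and exenatide E15 in colon (3.22, the others 4.43 to 4.73), rapamycin-treated E28 in colon (5.27, the others 4.34 to 4.54) and aged control E13 in skeletal muscle (3.28, the others 4.71 to 4.99).

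In YA the control A81 stood at 2.30 in adipose tissue (the others 4.38 to 4.62) and control A41 at 5.59 in heart (5.25 to 5.31). Exenatide-treated A79 stood at 4.86 in heart (5.25 to 5.58), A88 at 3.31 in hippocampus (4.98 to 5.56) and A34 at 4.33 in skeletal muscle (4.63 to 4.82).

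In ST the module mean moved in opposite directions in blood and hippocampus of the same groups of mice. With age it was higher by 0.597 in white blood cells, with every aged control above every young library, and the difference was -0.295 in hippocampus, with every aged control below. With rapamycin the differences were -0.625 in white blood cells and 0.259 in hippocampus, again without overlap. The difference between the tissues was not tested, and both comparisons share the aged controls.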

How the results depend on the processing

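Counts of called members that moved by more than 1.5 times are given here, and the cause was not tested. In batch 3 alone LT age fell from 139 calls over all tissues to 25 (adipose tissue 0, colon 1, heart 0) and LT exenatide from 81 to 30 (adipose tissue 0, colon 0), with fewer animals. In batches 1 and 2 alone colon gave 3 with age and 15 with exenatide, and heart 7 with age, or 6 without the batch term. With length and GC trends removed, counts were 11 (LT age, colon), 16 (LT age, liver), 49 (LT exenatide, all tissues), 13 (LT exenatide, colon), 7 and 17 (ST white blood cells, exenatide and rapamycin), 7 (rapamycin, frontal cortex), 4 (knockdown), 5 (exenatide by knockdown) and 2 (YA). The log2 fold change of Mrps30 in ST hippocampus turned from negative to 0.00604 with exenatide and 6.7e-06 within knockdown.

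Without the libraries that stand apart, LT colon age gave 4, ST exenatide 104 in all and 35 in white blood cells, knockdown 22 and exenatide by knockdown 22. With no filter, LT heart age gave 9, ST exenatide in white blood cells 3, rapamycin 64 in all, 7 in white blood cells and 5 in heart, and knockdown 4. Fits of only the compared conditions gave 20, 3 and 8 for LT age in white blood cells, colon and heart, 0 for ST exenatide in white blood cells, and 22 and 1 for rapamycin in frontal cortex and heart. DESeq2's Wald test gave 18 for LT age in liver and 15 for knockdown, and all 115 named values kept direction and side of the threshold under it. Elsewhere named values dropped below the threshold: 34 with length and GC trends removed (79 stayed), 25 with only the compared conditions (90 stayed), 20 with no filter (95), 14 without the batch term (43), 39 in batch 3 alone (12), 24 in batches 1 and 2 alone (28), 2 each with DESeq2 size factors, thinning and libraries apart left out, and 305 over all omissions of 1 animal (1190 stayed).

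Leaving out 1 animal gave, for LT age, 4 to 19 in white blood cells, 7 to 27 in colon, 8 to 23 in heart and 0 to 26 in liver. For LT exenatide it gave 53 to 91 in all and 15 to 32 in colon, for ST age 20 to 42 in white blood cells and 5 to 13 in heart, and for ST exenatide 0 to 25 in white blood cells. Rapamycin gave 59 to 110 in all, 2 to 39 in white blood cells, 8 to 15 in frontal cortex and 4 to 13 in heart, knockdown 2 to 27, exenatide by knockdown 2 to 22 and YA 0 to 1. Without the animal block, YA tissue counts were 64 in adipose tissue, 74 in white blood cells, 39 in colon, 54 in frontal cortex, 65 in heart, 57 in hippocampus, 41 in hypothalamus and 61 in skeletal muscle, and the pairing moved no count by over 1.5 times. All 94 group means of the set moved by less than 1 SD with another prior count or scaling.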
